A study of Schizosaccharomyces pombe with 3 samples.

Results

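The probes described here are the 664 arm probes of a fission yeast tiling array whose names end in f or m. They were chosen by name alone: probes on chromosomes I, II and III, over 100 kb from both ends of the tiled chromosome, outside 4 intervals that take in the centromeres and the mating-type region (3.70 to 3.84 Mb of chromosome I, 1.54 to 1.70 Mb and 2.10 to 2.16 Mb of chromosome II, 1.01 to 1.20 Mb of chromosome III). Of 37766 arm probes, 393 carry f, 271 carry m and 37102 carry no mark. No arm probe carries r, a mark that stands only on 30 probes of the mitochondrial set. The sources used here do not say what the letters stand for.

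The study measured the position of Psc3 in Schizosaccharomyces pombe by chromatin immunoprecipitation and tiling array (ChIP-chip), with 1 array for each of 3 strains. The clr4d cells lack Clr4 and were grown at 30 °C. The cdc10-v50 cells were grown at 26 °C and held at 35 °C for 4 h, which arrests this strain in G1, and no other strain was shifted, so arrest, allele and temperature cannot be told apart. Wild-type cells were grown at 30 °C and are labelled mat1Msmto leu1-32 ade6-216, with the tagged gene Psc3-GFP::kanMX. The fixatives were dimethyl adipimidate (45 min) and paraformaldehyde (30 min, 18 °C), the same in all 3 strains. The titles give Psc3-GFP for all 3 strains, and DNA was precipitated through the GFP tag. On every array Cy5 marks the precipitated DNA and Cy3 the input DNA from whole-cell extract. With 1 array per strain no difference below has a replicate check, and an SD is the spread between probes of 1 array.

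Psc3 belongs to cohesin, a protein ring that keeps sister chromatids paired and shapes chromosome arms. Clr4 is the histone methyltransferase on which fission yeast heterochromatin depends, and heterochromatin recruits cohesin. Chromosome arms are mostly single-copy DNA, interrupted by dispersed families of near-identical sequence. Among these are Tf2 retrotransposons with their solo long terminal repeats, and the wtf genes, some of which are spore-killing meiotic drivers. Others are tandem transporter genes and duplicated genes of the translation machinery. A probe in such a family can hybridise with DNA from every copy, so its signal need not come from its own locus. Cdc10 is part of the transcription factor complex that switches on genes for entry into S phase.

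Between 100 and 1000 kb of chromosome III the array's positions match the reference assembly ASM294v3. There, 93.2% of f tiles and all m tiles hold a 25-base word that occurs again in the genome. The windows below were chosen because they show what the marks sit on. Each is 90 bases long, from RefSeq ASM294v3, 5′ to 3′ on the strand of the feature, inside 1 marked tile and, for protein-coding genes, inside coding sequence. Capitals mark bases inside 25-base words found elsewhere in the genome on either strand.
Tf2-12, chrIII:780178-780267, minus strand: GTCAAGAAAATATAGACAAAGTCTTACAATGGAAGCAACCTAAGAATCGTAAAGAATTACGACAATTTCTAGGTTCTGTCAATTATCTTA
long terminal repeat, chrIII:114477-114566, plus strand: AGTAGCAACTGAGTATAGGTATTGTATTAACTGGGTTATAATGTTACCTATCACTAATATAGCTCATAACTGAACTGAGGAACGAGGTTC
SPRRNA.24, chrIII:523343-523432, plus strand: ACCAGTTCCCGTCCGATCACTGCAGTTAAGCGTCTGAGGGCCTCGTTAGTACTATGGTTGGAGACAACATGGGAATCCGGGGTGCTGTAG
gsf2, chrIII:960715-960804, minus strand: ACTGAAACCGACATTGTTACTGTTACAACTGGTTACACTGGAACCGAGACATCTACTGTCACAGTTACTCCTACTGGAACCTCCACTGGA
wtf9, chrIII:488120-488209, plus strand: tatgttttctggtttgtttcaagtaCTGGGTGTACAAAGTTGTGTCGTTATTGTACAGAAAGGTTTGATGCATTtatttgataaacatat
ght5, chrIII:212541-212630, plus strand: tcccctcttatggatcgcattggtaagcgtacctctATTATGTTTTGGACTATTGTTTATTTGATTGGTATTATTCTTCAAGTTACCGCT
tef101, chrIII:268661-268750, minus strand: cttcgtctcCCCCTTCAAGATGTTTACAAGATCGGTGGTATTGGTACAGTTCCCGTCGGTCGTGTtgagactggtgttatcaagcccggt
mae2, chrIII:276092-276181, minus strand: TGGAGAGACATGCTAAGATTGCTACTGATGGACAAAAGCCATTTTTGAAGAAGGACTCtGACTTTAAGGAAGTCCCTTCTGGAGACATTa
The Tf2-12 window lies in a tile marked m, and this exact sequence occurs 13 times in the assembly. The window of the long terminal repeat occurs 54 times and that of SPRRNA.24, a gene for 5S ribosomal RNA, 29 times, both under tiles marked m. The window of gsf2, a flocculin gene, occurs 4 times and is also under m. The wtf9 window, under m, and the ght5 and tef101 windows, under f, alternate between shared and unshared stretches. In the mae2 window, under f, 88 of the 90 bases lie in shared words, while in the whole tile 19.9% of the words are shared.

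Marked probes were unevenly spread. They made up 1.53% of arm probes on chromosome I, 1.20% on II and 3.45% on III. In the outer 100 kb of the chromosomes the share was 26.2% to 33.1%, in the 4 excluded intervals 13.1% to 23.4%, and the arms held 38.4% of the 1727 marked probes of the array. On the arms, marked probes joined within 1 kb formed 253 runs. Of these, 143 were single probes, 41 were pairs and 69 held 3 or more probes. Runs of f alone numbered 163 and runs of m alone 65, while 25 held both. The 13 runs of 10 or more probes held 171 members, and the longest spanned 7.5 kb. Both neighbouring tiles were on the array for 95.2% of f probes and 70.5% of m probes, against 99.8% of unmarked probes, so m probes more often stood beside a gap in the tiling. A further letter R precedes the mark on 195 f and 124 m probes, and its meaning is not given either.

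The 3 scans differed in range, and this touches every wild-type value at bright probes. On the wild-type array the raw signal stopped at 65535 in both channels. On the clr4d and cdc10-v50 arrays, read with a later software version, it reached 483973 and 546053 in Cy3 and no probe was flagged as saturated. In wild type 182 of 271 m probes were saturated in both channels, 44 in Cy5 alone and 1 in Cy3 alone. Of 393 f probes, 23 were saturated in both and 52 in Cy5 alone, and of 37102 unmarked probes 27 and 993. Where both channels were saturated the wild-type ratio carried no information: over the 182 m probes its median was 0.025 and its SD 0.033. Where Cy5 alone was saturated the wild-type value bounds the ratio from below, so a mutant minus wild type difference is an upper limit. Scan and strain cannot be told apart.

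Marked probes were bright in input. Levels below are log2 processed signals of 1 channel relative to the median of unmarked arm probes in the same channel and array. In Cy3, the input DNA, m probes had a median of 2.50 in clr4d (SD 1.27, 271 probes), 2.56 in cdc10-v50 (SD 1.06, 258 probes) and 1.67 in wild type (SD 0.72, 271 probes). These are 5.65-fold, 5.90-fold and, because most m probes were saturated there, at least 3.18-fold the unmarked median. The f probes stood lower, at 0.92 in clr4d, 0.72 in cdc10-v50 and 0.53 in wild type, with SDs of 1.23, 1.24 and 0.98. In Cy5, the ChIP DNA, m probes had medians of 2.73, 2.82 and 1.68 and f probes of 0.74, 0.77 and 0.71 in the same order of strains. Both channels were thus higher together in every strain, while the lower quartile of f probes lay near the unmarked median.

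**Figure D1:**
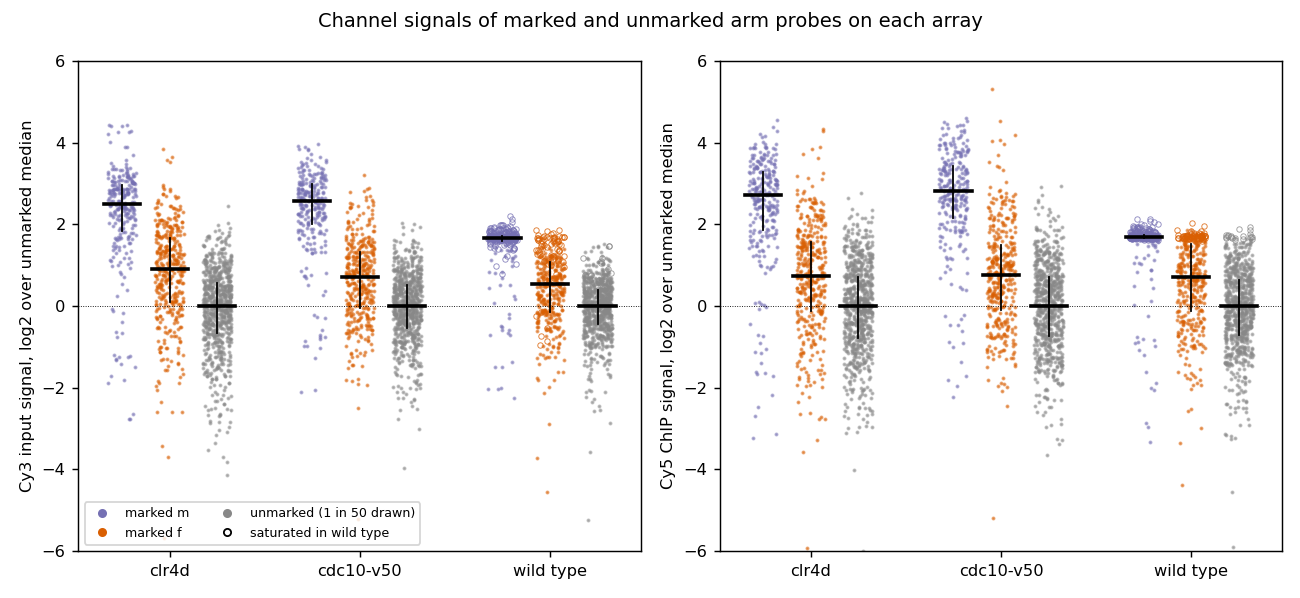
Cy3 input signal (left) and Cy5 ChIP signal (right) of arm probes, in log2 over the median of unmarked arm probes of that array, for clr4d, cdc10-v50 and wild type; points are probes (1 in 50 of the unmarked), open points are saturated in wild type, thick bars are medians and thin bars quartiles. The m probes lie at medians of 2.50 and 2.56 in the Cy3 channel of the mutants and are compressed at about 1.67 in wild type, and few points lie beyond the axis range.

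Marked probes were also brighter than the probes beside them. Each marked probe was compared with the median of unmarked probes within 3 kb, where at least 3 were present. In Cy3, 235 of 256 m probes lay above their neighbours in clr4d (91.8%), and 228 in cdc10-v50 (93.8%) and 241 in wild type (94.1%) did so. The median difference of m probes was 2.52 in clr4d, 2.57 in cdc10-v50 and 1.60 in wild type. For f probes it was 0.96, 0.79 and 0.58, and 82.3%, 75.9% and 72.3% lay above their neighbours. Background correction by normexp and loess within the array kept the sign of every Cy3 difference between marked and unmarked probes. Leaving out the probes saturated in wild type removed the brightest members, and the Cy3 level of the m probes left was 0.31 in clr4d, 0.74 in cdc10-v50 and 0.59 in wild type.

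The enrichment of Psc3, read as the log2 ratio of ChIP over input centred on each array's median, differed far less between marked and unmarked probes than either channel did. The median ratio of m probes was 0.19 in clr4d (SD 0.41), 0.29 in cdc10-v50 (SD 0.37) and 0.031 in wild type (SD 0.20). Their difference from the unmarked median was 0.20, 0.34 and 0.087, and it turned to -0.16, -0.32 and -0.22 after loess. For f probes the median was -0.097 in clr4d (SD 0.55), 0.016 in cdc10-v50 (SD 0.71) and 0.12 in wild type (SD 0.49). Their difference from the unmarked median was -0.081 in clr4d, 0.068 in cdc10-v50 and 0.18 in wild type, and under loess -0.21, -0.18 and -0.019. Under normexp the m difference was 0.012, -0.091 and -0.45 and the f difference -0.16, -0.094 and 0.11. All of these unadjusted differences are smaller than the SD between unmarked probes, which was 0.68, 0.58 and 0.63. The direction of the m difference, and of the f difference in cdc10-v50 and wild type, thus depended on the setting.

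**Figure D2:**
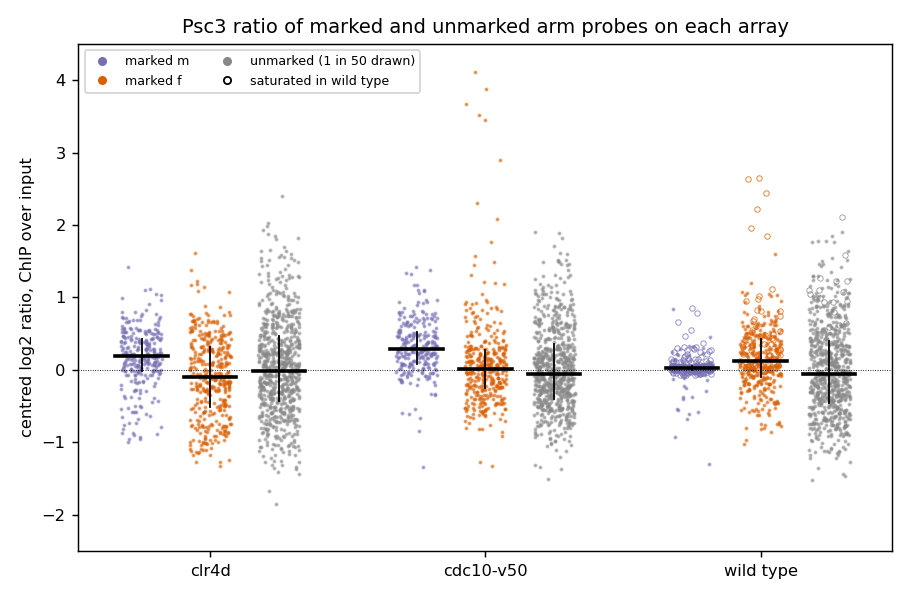
Centred log2 ratio of ChIP over input of arm probes on the clr4d, cdc10-v50 and wild-type arrays, drawn as points (1 in 50 of the unmarked) with medians as thick bars and quartiles as thin bars. Marked medians lie between -0.097 and 0.29, the wild-type m probes are narrowed by saturation (open points, SD 0.20), and a few probes lie beyond the axis range.

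The spread of the ratio was narrower among m probes than among unmarked probes. It was 0.61 times the unmarked SD in clr4d, 0.65 times in cdc10-v50 and, with saturation, 0.31 times in wild type. For f probes it was 0.82, 1.24 and 0.77 times. Few members were strongly enriched. A ratio of 2-fold or more was found at 8 f and 5 m probes in clr4d (2.04% and 1.85%), against 8.11% of all arm probes. In cdc10-v50 it was found at 18 f and 10 m probes (4.65% and 3.88%), against 5.65%, and in wild type at 16 f probes and no m probe (4.09% and 0%), against 6.39%. At 2-fold all shares of the members lay below the background of their array, and they did so under normexp and loess too. No background was taken at a lower threshold. The f share in wild type was 9.97% under normexp, where the background was 14.6%. The m share in wild type is limited by saturation.

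Across the arrays, the Cy3 pattern of the members was shared more closely than their ratio. Between clr4d and cdc10-v50 Pearson's r over 258 m probes was 0.95 in Cy3 and 0.35 in the ratio, and over 387 f probes 0.71 and 0.39. Over 36036 unmarked probes it was 0.84 and 0.76. These are descriptions over probes that share libraries and, within families, sequence.

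The mutants were then set against wild type probe by probe. At f probes the clr4d minus wild type difference in ratio had a median of -0.22 (SD 0.59, 391 probes), and of -0.25 over the 318 probes unsaturated in wild type. The Cy5 signal differed by 0.064 and the Cy3 signal by 0.41, and under normexp by -0.13 and 0.21. The sign of the Cy5 difference thus depended on the setting. The input moved with the difference in ratio, and its part in it was not tested. On chromosome I the median was -0.32, on II -0.38 and on III 0.015. At unmarked probes it was 0.0072. In cdc10-v50 the f median was -0.099 (SD 0.43, 385 probes), with Cy5 higher by 0.15 and Cy3 by 0.26. The median difference was -0.13 over unsaturated f probes and 0.017 over unmarked probes. The f medians were -0.24 and -0.19 after normexp and -0.21 and -0.14 after loess in clr4d and cdc10-v50.

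By count, 1 f probe was at least 2-fold higher in clr4d than in wild type (background 5.08%) and 26 were at least 2-fold lower (6.65%, background 2.34%). Among the 318 f probes unsaturated in wild type 18 were lower (background 2.24%) and 1 was higher (background 5.21%). With each run counted once, 11 f runs were lower and 0 higher, and no background was taken for runs. Over all f probes normexp gave 62 lower (15.9%, background 7.64%) and 7 higher (background 6.22%). In cdc10-v50, 5 f probes were higher (background 1.04%) and 10 lower (background 0.878%), and of those unsaturated in wild type none was higher (background 0.98%) and 6 were lower (background 0.791%). The number of f probes lower in cdc10-v50 was 40 under normexp (10.4%, background 4.96%) and 6 under loess (1.56%, background 0.463%). For m probes the wild-type ceiling leaves little to compare. Over the unsaturated m probes the median difference was -0.0096 in clr4d (44 probes) and 0.038 in cdc10-v50 (41 probes), with SDs of 0.45 and 0.34. In clr4d 1 of these was 2-fold higher and 1 was 2-fold lower, and in cdc10-v50 none was either.

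Neither mutant array reached a ceiling, so the 2 were also compared with each other, a comparison chosen after the saturation was seen. In clr4d, 17 m probes were at least 2-fold lower than in cdc10-v50 (6.59%, background 0.673%) and 2 were higher (background 2.1%). Of the 17 lower probes 15 lay in 1 run of 17 m probes on chromosome II, whose median difference was -1.14 (SD 0.088). Without this run 2 of 241 m probes were lower (0.83%, background 0.633%). The run's difference was -0.83 under loess and -0.87 under normexp, and the m probes lower by 2-fold then numbered 0 (background 0.657%) and 2 (background 1.53%). The median over all m probes was -0.065 (SD 0.45). Among f probes 13 were lower (3.36%, background 0.673%) and 4 higher (1.03%, background 2.1%), with a median of -0.17 (SD 0.71). The lower f probes include all 6 tiles of the mae2 run described below. Growth temperature differs between these strains as well as genotype, and the parts of each cannot be told apart.

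On the left arm of chromosome III the members can be read against sequence. Input signal of 2858 unmarked tiles correlated with the GC content of their reference windows at r = 0.61 in clr4d, 0.42 in cdc10-v50 and 0.48 in wild type when positions were taken as given, and at no more than 0.067 when they were displaced by 1 kb or more. The stretch held 59 f, 58 m and 2858 unmarked tiles. The median share of 25-base words that occur again in the genome was 54.0% in f tiles, 85.5% in m tiles and 0% in unmarked tiles. At least 1 such word was present in 93.2% of f tiles, all m tiles and 3.08% of unmarked tiles. The median copy number of a tile's words went up to 3 among f tiles and up to 55 among m tiles. Median GC content was 42.7% in f, 34.8% in m and 36.3% in unmarked tiles.

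Input signal was highest in marked tiles of 5 copies or more. In the 39 marked tiles whose median word is unique, Cy3 lay at 1.36 in clr4d, 0.81 in cdc10-v50 and 0.66 in wild type. These tiles spread widely, with an SD of 1.32 in clr4d, and that at chrIII:255901-256200 reached 3.29 there. In the 36 tiles of 1.5 to 2 copies Cy3 lay at 1.33, 1.40 and 1.23, so it was not higher in clr4d. In the 12 tiles of 5 to 9.5 copies it lay at 3.01, 2.76 and 1.65, and in the 12 tiles of 10 copies or more at 2.66, 2.75 and 1.66, where all 12 of each class were saturated in wild type. Most tiles of the last class lie on the single element Tf2-12, and several of 5 to 9.5 copies on gsf2. Spearman's rho between copies and Cy3 over the marked tiles was 0.51, 0.55 and 0.56. For the ratio it was 0.25, 0.051 and -0.17. The Cy3 of clr4d was not higher still in the last class: tiles of 10 copies or more had a lower median there than those of 5 to 9.5.

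**Figure D3:**
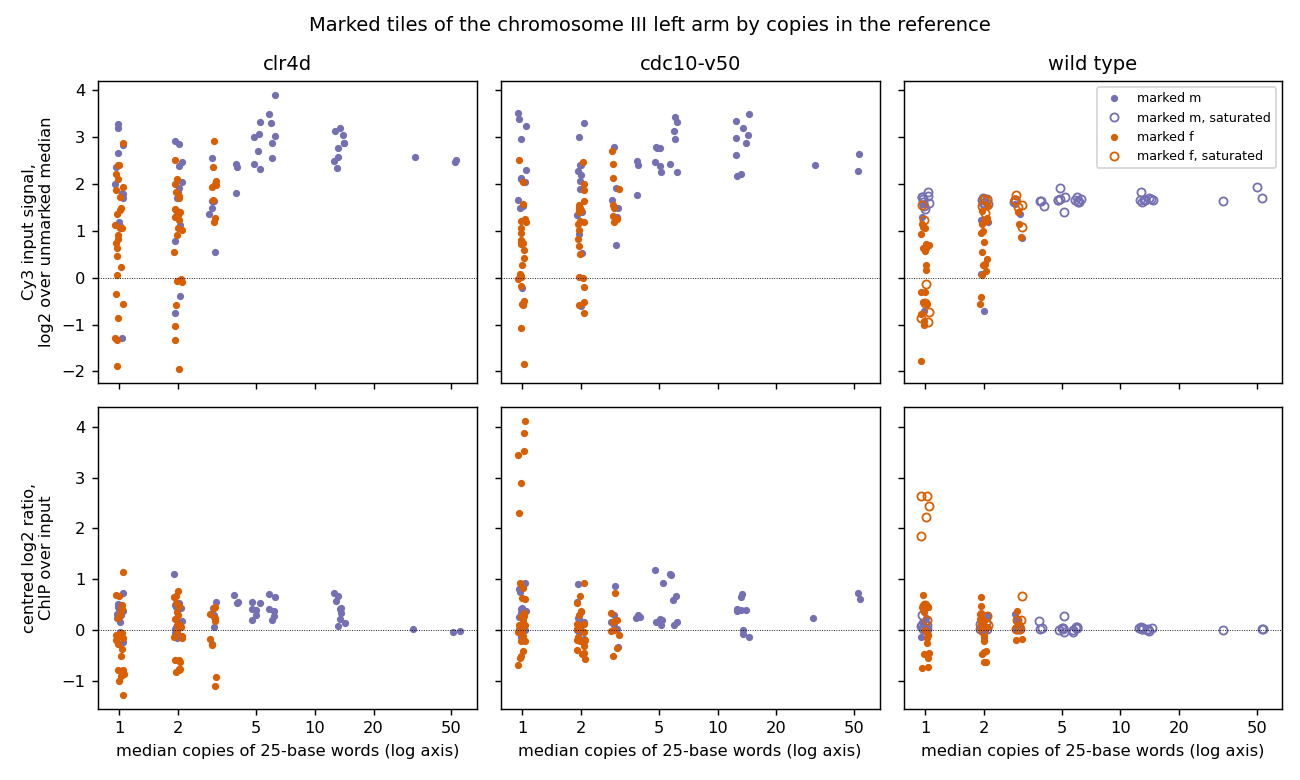
Marked tiles of chromosome III between 100 and 1000 kb, with the median number of genomic copies of their 25-base words (log axis, points shifted slightly sideways) against Cy3 input signal (upper row, log2 over the unmarked median) and centred log2 ratio (lower row) for clr4d, cdc10-v50 and wild type. Cy3 is higher at 5 copies or more (medians of 3.01 and 2.66 in clr4d), open wild-type points are saturated, and the high cdc10-v50 ratios at 1 copy are the mae2 tiles.

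Annotated families covered much of the stretch's members. Of the 117 marked tiles 67 (57.3%) lay by at least 50 bases on a long terminal repeat, a Tf2 element, a wtf gene, a ribosomal protein gene with a paralog or a translation elongation factor gene, against 2.48% of unmarked tiles. A marked tile lay on 14 of 25 long terminal repeats, on the single Tf2 element, on 7 of 8 wtf genes, on 8 of 11 ribosomal protein genes with a paralog and on both elongation factor genes. No tRNA gene of 10 did. Among families listed after the values were seen, all 4 hexose transporter genes and 1 of 3 genes for 5S ribosomal RNA did. The 13 marked tiles on long terminal repeats had a Cy3 of 1.01 in clr4d (SD 1.61), 0.83 in cdc10-v50 (SD 1.25) and 0.96 in wild type (SD 1.12), and a ratio of -0.022, 0.23 and -0.036. In all, 27 protein-coding genes and pseudogenes had a marked tile.

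Tf2-12 (chrIII:778133-782134, minus strand) is an LTR retrotransposon, one of a family of full-length elements. Its 10 tiles on the array are all marked m, and their words have a median of 13 copies. Cy3 had a median of 2.81 in clr4d (2.33 to 3.20), 2.92 in cdc10-v50 (2.18 to 3.49) and 1.66 in wild type, where all 10 tiles were saturated in both channels. The ratio was 0.38 in clr4d (0.022 to 0.74) and 0.38 in cdc10-v50 (-0.14 to 0.72), and carries no value in wild type. All 10 tiles were above 0 in clr4d and 7 in cdc10-v50. After loess the medians were -0.046 and -0.35, so the sign of the Tf2-12 ratio rests on the scale used. The ranges of the 2 mutant arrays overlapped.

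The 7 wtf genes, from wtf3 to wtf10, had 31 marked tiles, 11 f and 20 m. Their Cy3 medians were 1.70 in clr4d, 1.77 in cdc10-v50 and 1.56 in wild type (SD 0.74, 0.64 and 0.26), and 19 tiles were saturated in wild type in at least 1 channel. Their ratio was 0.24 in clr4d, 0.073 in cdc10-v50 and 0.077 in wild type, with SDs of 0.27, 0.17 and 0.096. By gene, the ratio in clr4d ran from 0.059 at wtf5 to 0.53 at wtf3, and in cdc10-v50 from -0.0019 at wtf10 to 0.21 at wtf4. The unmarked tiles of the stretch had medians of -0.040, -0.082 and -0.16. Loess took the family medians to -0.062, -0.50 and -0.26. The median marked wtf tile was therefore bright in input in all 3 strains, though the signal need not come from its own locus. No marked wtf tile had a ratio of 2-fold in either mutant. In wild type none did either, but saturation limited the ratio at 19 tiles.

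The hexose transporter genes ght6, ght5, ght8 and ght1, which take up glucose and related sugars, lie close together and had 14 f tiles. Their ratio was 0.49 in clr4d (SD 0.29), 0.57 in cdc10-v50 (SD 0.27) and 0.46 in wild type (SD 0.21). It was above 0 in 13, 14 and 13 tiles. Their Cy3 lay at 1.73, 1.53 and 1.07. In the same order of strains, the unmarked tiles of ght6 had median ratios of 0.60, 0.68 and 0.31. Those of ght5 had 0.064, 0.16 and 0.25, those of ght8 0.19, -0.084 and 0.13, and those of ght1 0.67, 0.27 and 0.11. In clr4d the marked tiles of ght1 were lower than its unmarked ones, at 0.43. In ght5 the tile with the largest shared share, 81.2% of its words, had the gene's highest Cy3, 2.37 in clr4d and 2.70 in cdc10-v50. In wild type it was also the highest, at 1.66, but was saturated. The tile with the smallest share, 11.2%, had the lowest Cy3 (0.82, 0.95 and 0.69). In ght8, ght1 and ght6 the tile with the largest share did not have the highest Cy3 on any array. In clr4d it had 1.94, 1.72 and 1.05, against 2.51, 2.20 and 1.06 at another tile of the gene. After loess the median ratios of the family's marked tiles were 0.13, -0.0058 and -0.038.

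The median ratio over the marked tiles of the elongation factor genes was below 0 on all 3 arrays. In wild type it was near the median of the unmarked tiles of the stretch. The genes tef101 (chrIII:267955-269516), for the factor that brings aminoacyl-tRNA to the ribosome, and eft202 (chrIII:537290-539922), for the factor that moves the ribosome along, had 5 f tiles, none saturated. Their ratio was -0.83 in clr4d (-1.10 to -0.30), -0.47 in cdc10-v50 (-0.57 to -0.099) and -0.17 in wild type (-0.21 to 0.38). All 5 tiles were below 0 in both mutants and 3 were in wild type. Against wild type the median difference was -0.73 in clr4d and -0.34 in cdc10-v50, and it was -0.59 and -0.31 after loess and -0.86 and -0.54 after normexp. Their Cy3 was 1.83 in clr4d, 1.41 in cdc10-v50 and 1.23 in wild type, while Cy5 was 0.95, 0.98 and 1.22. The higher input thus moved with the lower ratio, and its part was not tested. In the same order of strains, the 2 unmarked tiles of tef101 had ratios of 0.40, -0.49 and 0.27. The 1 unmarked tile of eft202 had -0.27, 0.18 and 0.40.

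The 8 ribosomal protein genes had 9 f tiles and were mixed, with a ratio of -0.12 in clr4d (-1.27 to 0.31), 0.085 in cdc10-v50 (-0.68 to 0.39) and -0.10 in wild type (-0.74 to 0.45). The paralogs rpl1201 and rpl1202, whose tiles consist wholly of shared words, had these ratios: rpl1201 was at 0.22 in clr4d, 0.12 in cdc10-v50 and 0.31 in wild type, and rpl1202 at 0.31, 0.39 and 0.34. The median word of either tile occurs 2 times in the genome. The lowest tile was that of rps1501, at -1.27 in clr4d, -0.68 in cdc10-v50 and -0.74 in wild type. The 9 tiles had no common sign, with 3, 5 and 4 above 0 in the same order of strains.

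**Figure D4:**
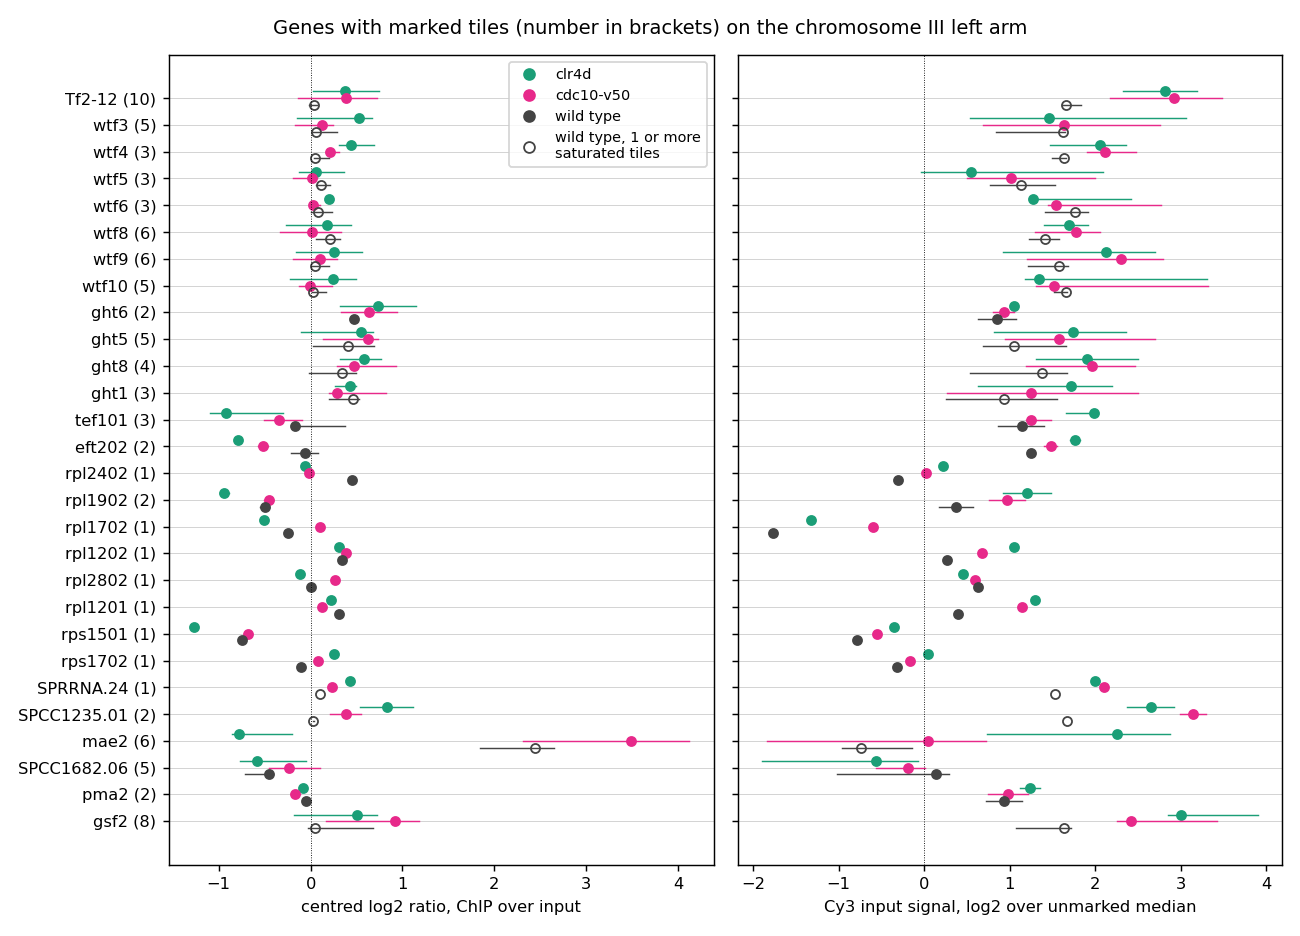
Median centred log2 ratio (left) and Cy3 input signal in log2 over the unmarked median (right) of the marked tiles of each gene on chromosome III between 100 and 1000 kb, for clr4d, cdc10-v50 and wild type from top to bottom in each row; lines span the lowest and highest tile, and open circles mark wild-type medians with saturated tiles. mae2 stands apart with 3.49 in cdc10-v50, at least 2.44 in wild type and -0.78 in clr4d.

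The tiles of gsf2 (chrIII:959199-966012, minus strand), the gene of a galactose-specific flocculin, had the highest median Cy3 of the protein-coding genes of the stretch in clr4d. Of 23 tiles on the gene 8 were marked, 7 m and 1 f, and 15 were not. The marked tiles had a Cy3 of 3.01 in clr4d, 2.43 in cdc10-v50 and 1.63 in wild type, where all 8 were saturated in at least 1 channel. Their ratio was 0.50 in clr4d (-0.18 to 0.72), 0.92 in cdc10-v50 (0.17 to 1.18) and 0.050 in wild type, where 5 carried no value. The unmarked tiles of the same gene were at -0.27, 0.0043 and 0.029. After loess the marked medians were 0.061 and 0.20 in the mutants. SPCC1235.01, with 2 m tiles of 10, had 0.83 in clr4d and 0.38 in cdc10-v50, both tiles being saturated in both channels in wild type. Its values were 0.39 and -0.36 under loess and 0.71 and -0.11 under normexp, so the sign in cdc10-v50 depended on the setting. The 2 marked tiles of pma2, for a proton pump of the plasma membrane, were at -0.085, -0.17 and -0.054, and the 5 of SPCC1682.06 at -0.58, -0.23 and -0.46.

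One run differed between the strains in both channels. It covers the gene mae2 (chrIII:275261-277262, minus strand), with 6 f tiles in a row. In clr4d the ratios of these tiles along the run were -0.20, -0.36, -0.78, -0.78, -0.83 and -0.86. In cdc10-v50 they were 2.31, 3.88, 4.12, 2.90, 3.53 and 3.45. In wild type 5 tiles were measured, at no less than 2.64, 2.65, 2.44, 2.22 and 1.85, since Cy5 was saturated at all of them, and the remaining tile was left out as non-uniform. The clr4d range did not overlap with that of either of the other two. The difference of clr4d minus wild type was -3.01 at most (SD 0.20), -3.12 after loess and -3.83 after normexp.

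The 2 channels of the mae2 run differed in different strains. Cy3 had a median of 2.25 in clr4d (0.73 to 2.88), 0.048 in cdc10-v50 (-1.84 to 0.73) and -0.74 in wild type (-0.96 to -0.14). Cy5 had a median of 1.56 in clr4d, 3.76 in cdc10-v50 and at least 1.68 in wild type. Over tiles the input signal was higher in clr4d than in wild type by a median of 2.67, and in cdc10-v50 by 0.75. The input moved with the ratio in clr4d, and its part in it was not tested. The 20 other tiles within 4 kb of the run's centre, all unmarked, had ratios of -0.14 in clr4d, -0.15 in cdc10-v50 and -0.26 in wild type, and none exceeded 0.39, 0.24 and 0.64. A median of 7.07% of the words of these 6 tiles occur again in the genome, against 54.0% over all f tiles of the stretch.

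**Figure D5:**
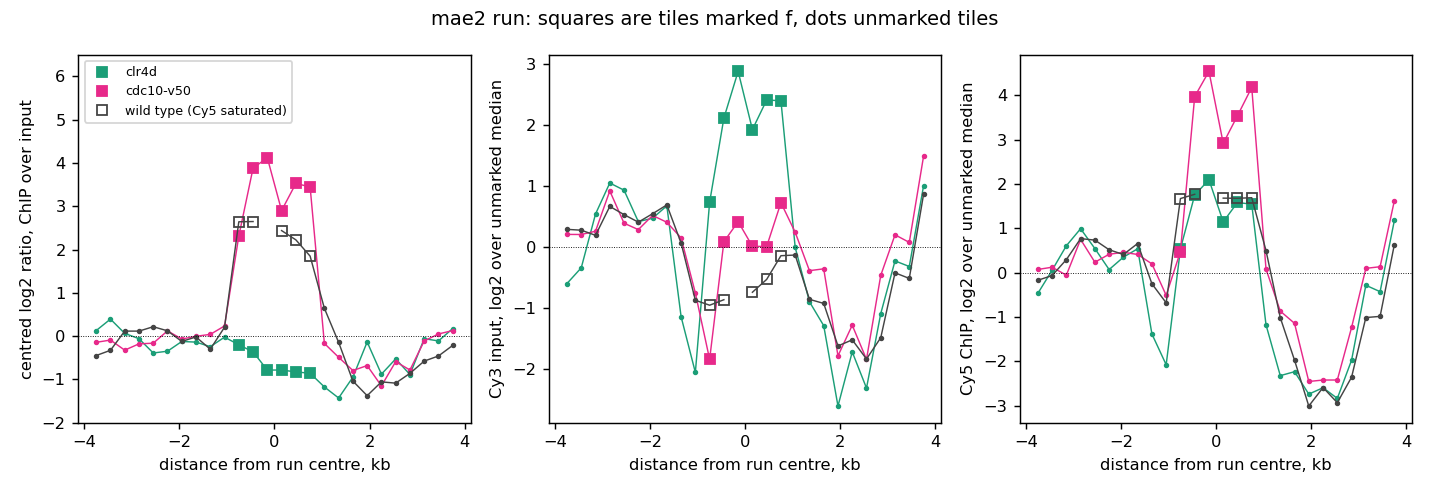
Centred log2 ratio (left), Cy3 input (middle) and Cy5 ChIP signal (right, both in log2 over the unmarked median) against distance from the centre of the mae2 run in kb, for clr4d, cdc10-v50 and wild type; squares are tiles marked f, dots unmarked tiles, and open squares wild-type tiles with saturated Cy5. The 6 marked tiles reach 4.12 in the cdc10-v50 ratio and 2.88 in the clr4d input, and the tiles beside them do neither.

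Elsewhere the array's positions were not matched to the reference, so the other runs are given by array position and carry no gene name. The longest run, chrI:4901101-4908600, held 22 f probes. Its ratio was 0.39 in clr4d (SD 0.54), -0.13 in cdc10-v50 (SD 1.62) and 0.020 in wild type (SD 0.63, 21 probes), with overlapping ranges. The next, chrII:689701-696600, held 17 m probes, all saturated in both channels in wild type. Its ratio was -0.77 in clr4d (SD 0.15), below 0 at all 17, and 0.35 in cdc10-v50 (SD 0.12), above 0 at all 17. After loess it was -1.20 and -0.35. The 8 probes with R had a Cy3 of 4.34 in clr4d and 3.85 in cdc10-v50. The 9 without R had 3.08 and 2.82, and the ranges of the 2 kinds did not overlap in either strain. Over all m probes Cy3 was not higher with R. It was 2.48 in clr4d and 2.50 in cdc10-v50 with R, against 2.53 and 2.63 without.

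Of the other long runs, chrI:3362101-3366900 (16 m), chrI:5191201-5195700 (12 m) and chrI:3991801-3996600 (11 m) had clr4d ratios of 0.25, 0.29 and 0.32. Their cdc10-v50 ratios were 0.33, 0.32 and 0.46. In clr4d their Cy3 was 2.82, 2.88 and 2.77, and for cdc10-v50 it was 2.80, 2.86 and 2.98, near the values of Tf2-12. After loess all 3 runs had ratios below 0 in both mutants (-0.18, -0.14 and -0.020, and -0.44, -0.41 and -0.27). The run chrI:2940901-2946000 (10 m and 1 f) was at -0.25 in clr4d (SD 0.35), 0.059 in cdc10-v50 and 0.26 in wild type, where all 11 probes were saturated. Its median difference from wild type was -0.54 in clr4d (SD 0.57). The run chrI:4519201-4525500 (15 f) had a Cy3 of -0.52 in clr4d, -0.37 in cdc10-v50 and 0.098 in wild type, where 3 probes were saturated, a Cy5 of -1.45, -0.74 and -0.86 and a ratio of -0.68, -0.31 and -0.54.

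Among runs of at least 3 probes, the other runs with the lowest clr4d minus wild type differences were short f runs. The naming rule also took the runs with the highest differences, which are not set out as a group here. The longest run, given above, had a higher median ratio in clr4d than in wild type. At chrII:579601-580500 the ratio was -0.80 in clr4d, -0.61 in cdc10-v50 and 0.65 in wild type, a difference of -1.46 in clr4d (SD 0.11) and -1.08 in cdc10-v50. Its Cy3 was 2.45, 1.05 and 0.59. At chrII:2809501-2810400 the ratio was -1.0, -0.66 and 0.35 and the Cy3 2.68, 1.12 and 0.80. One of 3 probes was saturated in wild type in each of these, where the differences are upper limits, and in both runs all 3 probes were below 0 in the mutants and above 0 in wild type, although normexp took the wild-type median of the second to -0.028. At chrII:3638401-3639300, with no saturation, the ratio was -0.75 in clr4d, 0.18 in cdc10-v50 and 0.28 in wild type, and at chrIII:1494001-1495200 it was -0.18, 0.33 and 0.89.

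A further pair of runs stood out in cdc10-v50. At chrII:112201-113700 (4 f) the ratio was 0.56 in clr4d, 1.27 in cdc10-v50 and 0.65 in wild type, and in cdc10-v50 it was 0.77 after loess. At chrI:3984301-3985200 (1 f and 2 m) it was -0.22 in clr4d, -1.32 in cdc10-v50 and 0.081 in wild type, with an SD of 0.89 between its probes in cdc10-v50 and all 3 saturated in wild type. Over the 69 runs of at least 3 probes, the median ratio reached 2-fold in no run in clr4d, 2 in cdc10-v50 and 1 in wild type, the last being mae2.

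Where the rule sets a limit, members on either side of it were few. Between 90 and 100 kb from an end, just outside, 25 f and 4 m probes had ratios of -0.11 in clr4d, 0.15 in cdc10-v50 and -0.15 in wild type. Between 100 and 110 kb, just inside, 6 f and 2 m probes had 0.071, 0.29 and -0.099. Within 10 kb of the excluded intervals 1 f probe lay inside them and 1 f and 2 m probes outside.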

How the data were processed

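Input and Psc3 ChIP DNA were hybridised on 1 two-colour Agilent tiling array per strain, without dye swap. The deposited scanner files hold processed and raw intensity values per spot from Agilent Feature Extraction, version 11.5.1.1 for clr4d and cdc10-v50 and 11.0.1.1 for wild type, per the file headers. The deposited files also hold the scanner software's log10 ratio of red over green processed signal, per the file headers, which was not used further. The authors' deposited value table is log2 of green over red: it equals minus the scanner ratio within 0.001 at 42968 of 42968 spots of each array, and is not centred (medians 0.040, 0.059 and -0.17 for clr4d, cdc10-v50 and wild type).

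The ratio here is log2 of processed Cy5 over Cy3 intensity, less its median over the 41551 genome probes of the array (-0.040, -0.060 and 0.17). The 1417 control spots and the non-uniform spots (9, 1215 and 62 over genome probes) were left out, and probe intensities of 1 channel were set against the unmarked arm median. A run joins marked probes within 1 kb. The code for the medians was run on simulated signals (12 differences on 41551 probes, largest error 0.19). These signals had no saturation and no signal shared between neighbouring or related probes. The check thus covers the computation alone, and several ratio differences between marked and unmarked probes are smaller than its largest error. Python 3.11.15 with numpy 2.4.6 and pandas 2.3.3, and limma 3.58.1 in R 4.3.3 for normexp (offset 50) and loess, were used.

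With 1 array per strain no test was possible, and the number of arrays limits the precision. Named runs were the 10 with the most probes, and among runs of at least 3 probes the 3 lowest and 3 highest ratios per strain and the 5 lowest and 5 highest differences from wild type. The naming rule also took every annotated gene and repeat under a marked tile of the chromosome III stretch. The text counts them all and describes some, picked with their values known. The members and lists were chosen with earlier results of these data known. The sources used here do not give the array's genome build. Its positions were used with RefSeq ASM294v3 only between 100 and 1000 kb of chromosome III, where a shift of 0 gave the highest share of repeated words in marked tiles (61.7%, against 0.485% in unmarked tiles). On the right arm the best shift was -900 bases, so no gene was named there.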

Additional observations from a re-analysis of the deposited data

Results flagged for a closer look

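The difference in log2 ratio between f probes and unmarked arm probes had opposite signs in clr4d and wild type. It was -0.08 in clr4d (393 probes) and 0.18 in wild type (391 probes), and this difference between the strains was not tested, since each has 1 array. On chromosome III alone it was 0.11 in clr4d and 0.18 in wild type, and after loess it was -0.21 and -0.019.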

How the results depend on the processing

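No paired analysis was possible because each strain has 1 array. Of 854 repeats of 62 values under 17 alternatives, 658 were of medians and differences, and 56 of these changed sign, 27 from a value of 0.1 or more in size and 29 from a smaller one. Of the changes of sign 21 came under loess, 16 under normexp and 9 without saturated probes. Of the 196 repeats of counts and shares past a fold 75 moved. Background shares over all arm probes were taken at 2-fold only, for unadjusted, normexp and loess values. Differences from wild type also had one over probes unsaturated in wild type. Counts and shares below under other settings, 1.5-fold among them, have no background to be set against. Among the smaller values, f minus unmarked in clr4d was 0.11 on chromosome 3, and in cdc10-v50 it was -0.094 after normexp and -0.18 after loess, and the Cy5 difference of clr4d minus wild type at f was -0.13 after normexp. Of 1191 repeats of the values of named genes and runs, 145 changed sign, 79 of them under loess and 51 under normexp, and none of these was of a value of 2-fold or more. The cause of these shifts was not tested, except that fewer probes enter when saturated probes, other chromosomes or all but 1 probe per run are left out. The clr4d minus cdc10-v50 comparison was added after the data were seen. Its 17 lower m probes became 2 after normexp (0.775%, background 1.53%), 0 after loess (background 0.657%) and 2 without the longest m run (0.83%, background 0.633%). Its 2 higher m probes became 4 after normexp (1.55%, background 3.14%) and 4 after loess (1.55%, background 1.71%). Its 4 higher f probes became 12 after normexp (3.1%, background 3.14%) and 7 after loess (1.81%, background 1.71%), near the background. After normexp background correction, ratios were -0.14 (m, cdc10-v50), -0.091 (m minus unmarked, cdc10-v50), -0.51 (m, wild type), -0.45 (m minus unmarked, wild type), -0.13 (m minus neighbours, wild type), -0.14 (f and m, cdc10-v50), -0.094 (f and m minus unmarked, cdc10-v50), while channel values were -0.056 (Cy5, cdc10-v50 minus wild type, f), 3.02 (Cy3, m minus unmarked, wild type), and shares past the fold were 9.97% (f, wild type), 0.775% (m, cdc10-v50), and counts past the fold were 7 (higher in clr4d than wild type, f), 62 (lower in clr4d than wild type, f), 40 (lower in cdc10-v50 than wild type, f), 17 (higher in clr4d than wild type, m), 3 (lower in cdc10-v50 than wild type, m). After loess within the array, ratios were -0.058 (f, wild type), -0.019 (f minus unmarked, wild type), -0.0017 (f minus neighbours, wild type), -0.16 (m, clr4d), -0.16 (m minus unmarked, clr4d), -0.36 (m, cdc10-v50), -0.32 (m minus unmarked, cdc10-v50), -0.24 (m minus neighbours, cdc10-v50), -0.13 (cdc10-v50 minus wild type, m), -0.26 (m, wild type), -0.22 (m minus unmarked, wild type), -0.077 (m minus neighbours, wild type), -0.28 (f and m, cdc10-v50), -0.24 (f and m minus unmarked, cdc10-v50), while shares past the fold were 0.763% (f, clr4d), 0.369% (m, clr4d), 0% (m, cdc10-v50), and counts past the fold were 2 (higher in clr4d than wild type, f), 3 (higher in cdc10-v50 than wild type, f), 6 (lower in cdc10-v50 than wild type, f), 2 (higher in clr4d than wild type, m), 8 (lower in clr4d than wild type, m), 0 (higher in cdc10-v50 than wild type, m), 2 (lower in cdc10-v50 than wild type, m). Of the normexp counts, the 7 f probes were 1.79%, the 17 m probes 6.27%, near their background, and the 3 m probes 1.16%. Of the loess counts, f probes higher were 0.512% in clr4d and 0.779% in cdc10-v50. The m probes were 0.738% higher in clr4d and 0.775% lower in cdc10-v50. The 8 m probes lower in clr4d under loess were 2.95%, and 7 of them lay in the longest m run. That run was saturated in both channels in wild type. Centred on unmarked arm probes, counts past the fold were 5 (lower in clr4d than wild type, m). Without probes saturated in wild type, ratios were -0.032 (m, clr4d), -0.026 (m minus unmarked, clr4d), -0.024 (clr4d minus wild type, m), -0.031 (m minus neighbours, wild type), while channel values were 0.12 (Cy5, m minus unmarked, clr4d), 0.34 (Cy3, m minus unmarked, clr4d), -0.30 (Cy5, clr4d minus wild type, m), -0.31 (Cy3, clr4d minus wild type, m), 0.87 (Cy5, m minus unmarked, cdc10-v50), 0.76 (Cy3, m minus unmarked, cdc10-v50), 0.27 (Cy5, cdc10-v50 minus wild type, m), 0.18 (Cy3, cdc10-v50 minus wild type, m), 0.61 (Cy3, m minus unmarked, wild type), and shares past the fold were 1.28% (f, cdc10-v50), 2.52% (f, wild type), 0% (m, clr4d), 0% (m, cdc10-v50), and counts past the fold were 0 (higher in cdc10-v50 than wild type, f), 6 (lower in cdc10-v50 than wild type, f), 1 (higher in clr4d than wild type, m), 1 (lower in clr4d than wild type, m), 0 (higher in cdc10-v50 than wild type, m), 0 (lower in cdc10-v50 than wild type, m). Keeping non-uniform spots, counts past the fold were 2 (lower in cdc10-v50 than wild type, m). Counting each run once, shares past the fold were 2.16% (f, cdc10-v50), while counts past the fold were 0 (higher in clr4d than wild type, f), 11 (lower in clr4d than wild type, f), 1 (higher in cdc10-v50 than wild type, f), 5 (lower in cdc10-v50 than wild type, f), 3 (higher in clr4d than wild type, m), 0 (lower in clr4d than wild type, m), 4 (higher in cdc10-v50 than wild type, m), 0 (lower in cdc10-v50 than wild type, m). On chromosome 1 alone, counts past the fold were 6 (lower in clr4d than wild type, f), 2 (higher in cdc10-v50 than wild type, f), 5 (lower in cdc10-v50 than wild type, f), 3 (higher in clr4d than wild type, m), 1 (lower in clr4d than wild type, m), 4 (higher in cdc10-v50 than wild type, m). On chromosome 2 alone, ratios were -0.016 (m, clr4d), -0.091 (clr4d minus wild type, m), while counts past the fold were 0 (higher in clr4d than wild type, f), 13 (lower in clr4d than wild type, f), 0 (higher in cdc10-v50 than wild type, f), 5 (lower in cdc10-v50 than wild type, f), 1 (higher in clr4d than wild type, m), 0 (lower in clr4d than wild type, m), 3 (higher in cdc10-v50 than wild type, m), 0 (lower in cdc10-v50 than wild type, m). On chromosome 3 alone, ratios were 0.015 (clr4d minus wild type, f), while shares past the fold were 0.84% (f, clr4d), and counts past the fold were 0 (higher in clr4d than wild type, f), 7 (lower in clr4d than wild type, f), 3 (higher in cdc10-v50 than wild type, f), 0 (lower in cdc10-v50 than wild type, f), 1 (higher in clr4d than wild type, m), 1 (lower in clr4d than wild type, m), 3 (higher in cdc10-v50 than wild type, m), 0 (lower in cdc10-v50 than wild type, m). At a threshold of 1.5-fold, shares past the fold were 9.67% (f, clr4d), 11.9% (f, cdc10-v50), 14.1% (f, wild type), 10.7% (m, clr4d), 22.5% (m, cdc10-v50), 1.48% (m, wild type), while counts past the fold were 17 (higher in clr4d than wild type, f), 101 (lower in clr4d than wild type, f), 20 (higher in cdc10-v50 than wild type, f), 37 (lower in cdc10-v50 than wild type, f), 29 (higher in clr4d than wild type, m), 24 (lower in clr4d than wild type, m), 55 (higher in cdc10-v50 than wild type, m), 7 (lower in cdc10-v50 than wild type, m).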
